A study of Mus musculus with 8 samples.

Results

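The Krüppel-like factors (KLFs) Klf2, Klf3, Klf4, Klf6, Klf7, Klf9, Klf10, Klf11, Klf13 and Klf16 were followed in murine bone-marrow-derived macrophages (BMDMs) that had or had not been co-cultured with apoptotic cells before an inflammatory stimulus. They are 10 of the 55359 genes of the deposited expression table and were picked by gene symbol, with the Ensembl identifiers of the table named by mouse GENCODE annotation, and all 10 were among the 16309 genes that were abundant enough to be tested. KLFs are transcription factors whose conserved zinc fingers at the C-terminus bind GC-rich and CACCC sequences, while their N-termini differ and recruit different partners. KLF2 and KLF4 are mainly known as restraints on inflammatory activation of endothelial cells and macrophages, KLF6 as an immediate-early factor that cooperates with NF-κB, KLF9, KLF10, KLF11, KLF13 and KLF16 as binders of the Sin3 co-repressor, and KLF3 as a binder of the CtBP co-repressor.

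All samples were BMDMs of adult C57BL/6 wild-type mice of both sexes, grown from marrow with 20 ng/mL M-CSF plus 20 ng/mL GM-CSF until day 7, and all were enriched with CD45 beads at harvest. Ctrl cells received no further treatment. LPS cells received LPS (100 ng/mL) together with mouse IFNγ (100 U/mL), termed LPS/IFNγ here, over 6 h. Eff cells were co-cultured for 16 h with 5 apoptotic NIH-3T3 cells per macrophage (Mϕ) in the presence of 10 nM dimerizer, which triggers apoptosis in these engineered mouse fibroblasts, and LPSEff cells received the co-culture, 2 washes and then the same stimulus. Each group had 2 samples, and since the labels do not say whether these came from separate mice or cultures, the p-values measure the spread between these samples, which may be technical. The dead cells were of the same species, so that reads from engulfed or attached fibroblasts and from Mϕ cannot be told apart, and no sample of dead fibroblasts alone was analysed here.

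The samples held 3481288 to 12020918 reads on genes. All values are normalized counts, the read count of a gene divided by a factor for the depth of its sample. A depth of 3 reads corresponded to 1.73 to 5.71 normalized counts, and the least covered values of the family rested on 20 reads (Klf11 in a Ctrl sample) and 21 reads (Klf2 in an LPSEff sample). The summed level of 10 macrophage markers was 110206 to 111290 for Ctrl, 88091 to 106042 for LPS, 103989 to 132724 for Eff and 95337 to 141883 for LPSEff, with none of the 10 at 0. Lyz2 made up most of this sum, with means of 81291 in Ctrl, 60082 in LPS, 91545 in Eff and 78775 in LPSEff. The summed level of 14 fibroblast markers was 185 to 370.1 for Ctrl, 934 to 969 for LPS, 2065 to 3828 for Eff and 5474 to 6177 for LPSEff, and Dcn, Prrx1, Loxl1 and Lum had at most 3 reads per sample in Ctrl. Ctrl and LPS cells had been kept without NIH-3T3 cells. The sum of 6 dendritic cell markers was 2039 to 2576, 8292 to 16025, 1312 to 1619.6 and 6483 to 6688 in the same order of groups, with Cd209a and Clec9a at or below 3 reads in some of them, neutrophil markers summed to 643 to 2176, T cell markers to 4.94 to 19.4 and B cell markers to 1.73 to 16.2 over all samples. Mitochondrially encoded genes took 0.57% to 1.27% of the reads. In bulk samples, fewer cells of a type and less RNA per cell cannot be told apart.

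KLF6 dominated the family at the mRNA level. Compared per kilobase of the canonical transcript, Klf6 stood at 977 ± 18.9 normalized counts per kilobase in Ctrl (mean ± SD, n = 2, as throughout), followed by Klf13 (214 ± 4.53), Klf10 (131 ± 27.5) and Klf4 (89.7 ± 12.5), with no overlap between the samples of these neighbours. Klf16 (67.4 ± 5.07), Klf3 (58.2 ± 19.0), Klf2 (55.9 ± 0.824) and Klf7 (52.7 ± 11.8) came next, and each of these overlapped its neighbour in this order. Klf9 (26.9 ± 0.196) and Klf11 (8.57 ± 0.665) were the lowest. The place of Klf3 depends on the transcript length, since its level was 20.4 normalized counts per kilobase when divided by the length of all its annotated exons. After LPS/IFNγ the order changed, though Klf6 and Klf13 kept their places in LPS and LPSEff. Klf10 moved from the third place in Ctrl and Eff to the eighth in LPS and the sixth in LPSEff. Klf4 moved from the fourth place in Ctrl and the fifth in Eff to the seventh in LPS and the eighth in LPSEff. The exact places after the stimulus were not resolved. In LPS, the samples of Klf2 overlapped those of Klf4, those of Klf4 overlapped Klf10 and those of Klf10 overlapped Klf9. In LPSEff, the samples of Klf10 overlapped those of Klf7, and the samples of Klf4 overlapped those of Klf2. Klf6 provided 56.6% and 59.6% of the family's summed level per kilobase in Ctrl and 54.4% and 56.2% in Eff, but 78.2% and 84.3% after LPS/IFNγ alone and 76.6% and 77.2% when the stimulus followed efferocytosis. The sum itself was 1702 and 1661 for Ctrl, 1719 and 1637 for Eff, 2121 and 2578 for LPS and 1867 and 1942 for LPSEff, with all 4 stimulated samples above all 4 unstimulated ones on this scale. The separation was lost when the sum was divided by the total of normalized counts of each sample, which was larger in stimulated samples (8470249 to 9489294) than in unstimulated ones (6587737 to 6951788). Per 1000000 normalized counts, the sum was 257 and 239 for Ctrl, 261 and 238 for Eff, 250 and 272 for LPS and 209 and 205 for LPSEff, so that LPSEff then lay below all other groups.

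**Figure D1:**
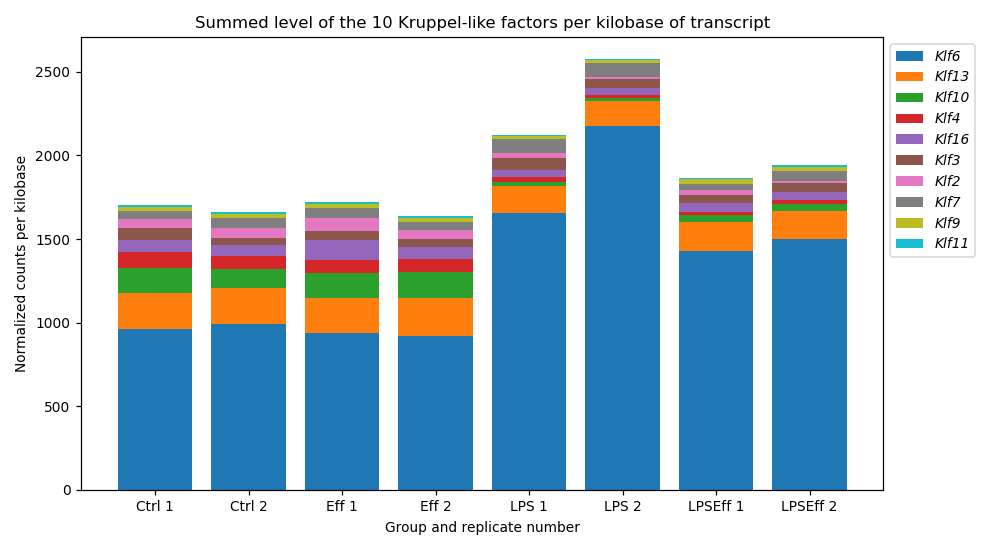
Level of the 10 KLFs in each of the 8 samples, stacked, in normalized counts per kilobase of the canonical transcript (vertical axis), with the samples ordered by group and replicate number (horizontal axis). Klf6 is the largest segment in every sample and takes 78.2% and 84.3% of the bar in the LPS samples, while the segments of Klf10 and Klf4 shrink in the stimulated samples.

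The sequences upstream of the transcription start are shown for the 3 KLFs that moved down most after LPS/IFNγ (Klf2, Klf4 and Klf10) and for Klf6, the member that passed the test in the upward direction. They were read from the GRCm39 genome, 5′ to 3′ on the strand of the gene, and end 1 base before the start of the canonical GENCODE transcript, except that of Klf4, which ends 62 bases further upstream because another transcript starts there. Capitals mark CACCC and GGGCGG, the CACCC box and the GC box that KLF and SP proteins bind, on either strand. The Klf2 stretch is chr8:73072476-73072725 (plus strand), the Klf4 stretch chr4:55532529-55532716 (minus strand), the Klf10 stretch chr15:38300960-38301209 (minus strand) and the Klf6 stretch chr13:5911231-5911480 (plus strand).
Klf2: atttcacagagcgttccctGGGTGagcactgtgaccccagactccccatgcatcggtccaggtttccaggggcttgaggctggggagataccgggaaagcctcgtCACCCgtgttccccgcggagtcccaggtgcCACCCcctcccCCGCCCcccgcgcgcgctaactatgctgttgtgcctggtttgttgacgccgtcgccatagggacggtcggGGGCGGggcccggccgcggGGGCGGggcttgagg
Klf4: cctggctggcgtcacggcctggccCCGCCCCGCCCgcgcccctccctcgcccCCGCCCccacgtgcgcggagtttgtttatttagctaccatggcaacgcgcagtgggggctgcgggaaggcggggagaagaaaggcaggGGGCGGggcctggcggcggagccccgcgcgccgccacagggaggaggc
Klf10: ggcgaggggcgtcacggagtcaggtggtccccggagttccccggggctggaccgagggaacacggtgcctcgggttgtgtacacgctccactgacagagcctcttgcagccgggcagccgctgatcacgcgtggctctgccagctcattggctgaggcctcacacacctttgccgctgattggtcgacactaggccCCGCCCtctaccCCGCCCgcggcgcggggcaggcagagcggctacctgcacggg
Klf6: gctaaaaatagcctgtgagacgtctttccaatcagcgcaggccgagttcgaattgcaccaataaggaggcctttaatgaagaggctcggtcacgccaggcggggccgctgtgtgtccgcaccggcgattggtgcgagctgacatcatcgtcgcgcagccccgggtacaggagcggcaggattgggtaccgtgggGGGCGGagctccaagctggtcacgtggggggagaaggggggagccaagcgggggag

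The Klf2 stretch holds 3 CACCC boxes and 3 GC boxes, that of Klf4 4 GC boxes, of which 2 overlap by 1 base, that of Klf10 2 GC boxes and that of Klf6 1 GC box. Over the 250 bases before the start, GGGCGG occurred on either strand in 9 of the 10 members, all but Klf9, and in 36.3% of 21770 protein-coding promoters, while CACCC occurred in 4 of 10 members (Klf2, Klf3, Klf9 and Klf13) and in 52.9% of promoters. CCAAT was present in 6 members (36.5% of promoters). The NF-κB motif had 1 match among the members, in Klf10 at base -218 (7.62% of promoters), and the MEF2 motif 1 match, in Klf6 at base -249 (2.79% of promoters). TTCNNNGAA, the STAT site of IFNγ-responsive promoters, was found in 0 of the 10 members (7.7% of promoters), as were the AP-1 motif TGANTCA (6.17%), the cAMP response element TGACGTCA (1.69%) and TATAAA (11.9%). These are letter matches within 1 window, not binding sites.

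To ask how the inflammatory stimulus changed the family in naive cells, LPS was compared with Ctrl by limma on log2(normalized count + 1), with all 8 samples in the fit and Benjamini-Hochberg adjustment over all tested genes. Of the 10 KLFs, Klf6 rose and Klf10, Klf4 and Klf9 fell at an adjusted p under 0.05, against 24% of all tested genes that passed in either direction (12.4% higher and 11.6% lower). In Mϕ co-cultured with apoptotic cells (LPSEff vs Eff), Klf6 rose and Klf4, Klf10, Klf2 and Klf16 fell, against 19.7% of all tested genes in either direction (10.7% higher and 8.95% lower). The median log2 fold change of the 10 members was -0.55 in LPS vs Ctrl and -0.38 in LPSEff vs Eff, beside -0.01 and 0.01 over all tested genes. With both stimulus effects averaged, 6 of 10 passed, with Klf6 higher and Klf2, Klf4, Klf10, Klf13 and Klf16 lower, against 36.5% of all genes (17.9% higher and 18.6% lower), and the same 6 showed no overlap between the 4 stimulated and the 4 unstimulated samples, as did 36% of all genes. Within single contexts, the samples of both groups did not overlap for 8 of 10 members in LPS vs Ctrl (59.3% of all genes) and for 6 of 10 in LPSEff vs Eff (59.9% of all genes). With the replicate number as a block in the fit, 8 of 10 members passed in LPS vs Ctrl, against 41.2% of all genes, where Klf2 (-1.37, adjusted p = 0.00384), Klf7 (0.64, adjusted p = 0.0336), Klf13 (-0.46, adjusted p = 0.0145) and Klf16 (-0.64, adjusted p = 0.0164) were added, and edgeR with the block also gave 8, against 40.9%. In LPSEff vs Eff 6 of 10 passed with the block, against 37% of all genes, where Klf13 was added (-0.39, adjusted p = 0.0337). The number of members past the threshold rested on single samples. Without either Ctrl sample, 2 members passed in LPS vs Ctrl and 2 in LPSEff vs Eff, and Klf4 and Klf10 were those 2 each time. Of 10 tested macrophage markers, 2 were higher and 0 lower in LPS vs Ctrl, and 3 were higher and 0 lower in LPSEff vs Eff. Of 4 tested dendritic cell markers, 2 were also higher in LPS vs Ctrl and 1 in LPSEff vs Eff, and of 5 tested neutrophil markers 2 and 1. Of 12 tested fibroblast markers, 3 were higher and 0 lower in LPS vs Ctrl (median log2 fold change 1.36). Neither Ctrl nor LPS cells had received NIH-3T3 cells, so that no NIH-3T3 material was present in that contrast. In LPSEff vs Eff, 1 fibroblast marker was higher and 0 lower (median 1.05), and 7 had p under 0.05 before adjustment in limma. The part of these markers in the KLF differences was not tested. The direction is relative to the depth scaling: when the samples were instead scaled to equal totals, the median of all genes moved from -0.01 to -0.40 in LPS vs Ctrl and from 0.01 to -0.44 in LPSEff vs Eff, and the split of genes that passed in LPS vs Ctrl moved from 2015 higher and 1895 lower to 1420 higher and 4315 lower. With equal totals 7 of 10 members passed in LPS vs Ctrl, against 35.2% of all genes, and 5 of 10 in LPSEff vs Eff, against 34.2%.

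**Figure D2:**
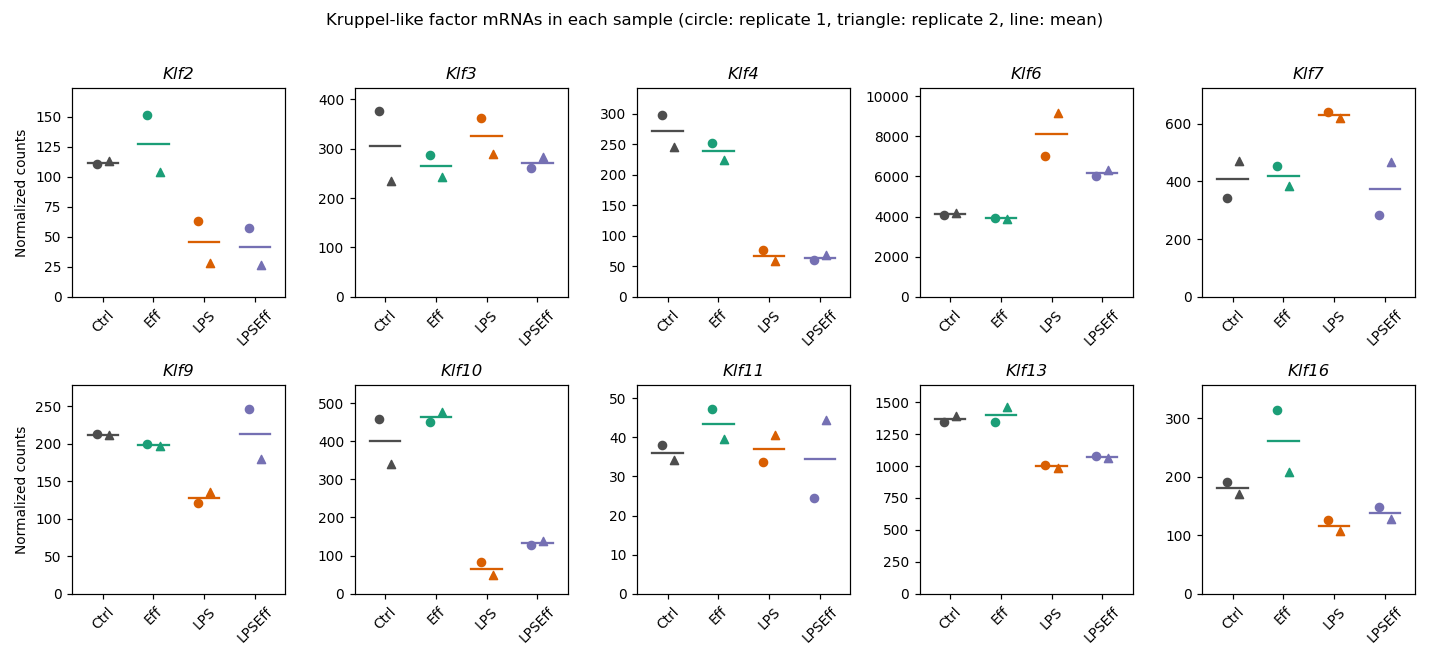
Normalized counts (vertical axes, each from 0) of the 10 KLFs in the groups Ctrl, Eff, LPS and LPSEff (horizontal axes), with a circle for replicate 1, a triangle for replicate 2 and a line at the mean. For Klf2, Klf4, Klf10, Klf13 and Klf16 every stimulated sample lies below every unstimulated one, and for Klf6 above it, whereas Klf9 is low in LPS only (120.3 and 136 normalized counts).

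Klf4 (chr4:55527139-55532528, minus strand) encodes a factor of the KLF2/4 group that drives monocyte differentiation and limits NF-κB-dependent genes in Mϕ. Its normalized counts were 299 and 245 for Ctrl, 76.3 and 58.9 for LPS, 252 and 225 for Eff and 60.2 and 68.5 for LPSEff. The 4 stimulated samples were all below the 4 unstimulated ones. It was 3.99-fold lower in LPS than in Ctrl, or -2.00 (SE 0.24, adjusted p = 0.000835) as a log2 fold change, and 3.67-fold lower in LPSEff than in Eff, with -1.88 (SE 0.24, adjusted p = 0.00123). The drop had rank 344 in LPS vs Ctrl and rank 327 in LPSEff vs Eff among the 16309 genes, counted from the most lowered. Both changes passed under every alternative and without any single sample, between -2.40 and -1.78. No difference between this response with and without prior efferocytosis was detectable. The difference between both stimulus effects was 0.12 with a 95% interval of -0.65 to 0.89 on the log2 scale.

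Klf2 (chr8:73072726-73075502, plus strand), the closest relative of Klf4, is induced by the ERK5-MEF2 pathway, keeps T cells and monocytes quiescent and lowers NF-κB activity. Normalized counts of the gene were 110.4 and 113 for Ctrl, 63.4 and 28.4 for LPS, 152 and 104 for Eff and 57.0 and 26.7 for LPSEff. All stimulated samples lay below all unstimulated ones, but replicate 1 of each stimulated group exceeded replicate 2 by more than the level of replicate 2 itself. The difference was -1.37 (SE 0.47) in LPS vs Ctrl, which did not pass (adjusted p = 0.0694), and -1.66 (SE 0.47, adjusted p = 0.0407) in LPSEff vs Eff, which did. Averaged over both, Klf2 fell by 1.51 on the log2 scale (SE 0.33, adjusted p = 0.00806). The single-context calls turned on single samples: Klf2 also passed in LPS vs Ctrl without LPS replicate 1, at -1.94 (adjusted p = 0.0324), and no longer passed in LPSEff vs Eff without a Ctrl sample, an Eff sample or LPSEff replicate 2, where the adjusted p was 0.0677 to 0.198, nor with edgeR (-1.53, adjusted p = 0.0626). The gene overlaps Eps15l1 on the opposite strand.

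Klf10 (chr15:38291703-38300959, minus strand), first described as a TGF-β-inducible early gene, encodes a repressor that binds Sin3 and enhances Smad signalling, and showed the largest drop of the family in LPS vs Ctrl. The samples held normalized counts of 459 and 340.0 for Ctrl, 82.8 and 48.7 for LPS, 450.4 and 476 for Eff and 128 and 137 for LPSEff. It was 6.13-fold lower in LPS than in Ctrl, with -2.62 (SE 0.28, adjusted p = 0.000529), which was rank 105 of the 16309 tested genes, counted from the most lowered. In LPSEff it was 3.47-fold lower than in Eff, with -1.80 (SE 0.28, adjusted p = 0.00351), and both drops passed under every alternative, between -3.01 and -1.75. Both LPSEff samples were above both LPS samples. The level in LPSEff was 2.07-fold that in LPS (log2 fold change 1.05, SE 0.28, 95% interval 0.40 to 1.70, adjusted p = 0.199), which did not pass without the replicate block and passed with it (limma 1.05, adjusted p = 0.0199, and edgeR 1.03, adjusted p = 0.0307). The differences between same-numbered samples were 0.63 and 1.47. The difference between both stimulus effects was 0.82 (SE 0.40, 95% interval -0.09 to 1.74, adjusted p = 1).

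Klf11 (chr12:24701273-24712913, plus strand), the other TGF-β-inducible early gene and the nearest relative of Klf10, did not share this pattern. Per sample, the normalized counts were 38.1 and 34.1 for Ctrl, 33.6 and 40.6 for LPS, 47.3 and 39.5 for Eff and 24.5 and 44.4 for LPSEff, and the groups overlapped in LPS vs Ctrl and in LPSEff vs Eff. The log2 fold change was 0.04 (95% interval -0.80 to 0.87) in LPS vs Ctrl and -0.38 (95% interval -1.22 to 0.46) in LPSEff vs Eff. It rested on 20 to 59 reads per sample, and no difference was detectable at this depth.

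Klf6 (chr13:5911481-5920393, plus strand) encodes an immediate-early factor that acts with NF-κB at inflammatory promoters. Its normalized counts were 4073 and 4186 for Ctrl, 7004 and 9182 for LPS, 3949 and 3884 for Eff and 6038 and 6337 for LPSEff. The stimulated samples were all above the unstimulated ones. Klf6 was 1.94-fold higher in LPS than in Ctrl, with 0.96 (SE 0.20, adjusted p = 0.00963), and 1.58-fold higher in LPSEff than in Eff, with 0.66 (SE 0.20, adjusted p = 0.0483). Both LPSEff samples stood below both LPS samples, with a difference of -0.37 on the log2 scale (SE 0.20, 95% interval -0.82 to 0.07, adjusted p = 0.589), which did not pass. The rise of Klf6 is the family's result that depends most on the scaling. Under quantile normalization the log2 fold change was 0.16 (adjusted p = 0.557) in LPS vs Ctrl and turned to -0.13 (adjusted p = 0.657) in LPSEff vs Eff, and with equal totals it was 0.56 (adjusted p = 0.0325) and 0.21 (adjusted p = 0.372), against a median of all genes of -0.40 and -0.44. Without Ctrl replicate 1 or 2 the adjusted p in LPS vs Ctrl was 0.059 or 0.0507, and in LPSEff vs Eff the call was lost without any 1 sample of Ctrl, Eff or LPSEff (adjusted p 0.078 to 0.191).

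Klf9, Klf13 and Klf16 encode Sin3-binding repressors. Klf9 (chr19:23118187-23148497, plus strand) is a direct target of the glucocorticoid receptor. Normalized counts of the gene were 213 and 211 for Ctrl, 120.3 and 136 for LPS, 199.8 and 197 for Eff and 246 and 179 for LPSEff. The LPS samples were the 2 lowest of the 8, and the LPSEff samples lay on either side of the unstimulated ones. Klf9 was 1.65-fold lower in LPS than in Ctrl, with -0.73 (SE 0.22, adjusted p = 0.0457), whereas LPSEff vs Eff gave 0.08 (95% interval -0.42 to 0.59). The call in LPS vs Ctrl was marginal, as it was lost with edgeR (-0.70, adjusted p = 0.0523), with DESeq2 (-0.69, adjusted p = 0.103) and without any 1 sample of Ctrl, LPS or Eff (adjusted p 0.0763 to 0.164). LPSEff exceeded LPS 1.64-fold (0.71, SE 0.22, adjusted p = 0.269), which did not pass, with 1.03 and 0.39 between same-numbered samples. With the replicate block it stood at 0.71, adjusted p = 0.0501 in limma and 0.73, adjusted p = 0.0404 in edgeR. The difference between both stimulus effects was 0.81 (SE 0.31, 95% interval 0.09 to 1.52, adjusted p = 1), and 0 of the 16309 genes passed that test (311 at p under 0.05 before adjustment in limma, and 0 with edgeR and DESeq2, where 369 and 244 were under 0.05).

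Klf13 (chr7:63536099-63588663, minus strand), which is known for inducing the chemokine gene Ccl5 in T cells, was the second most abundant member per kilobase in all groups. The samples held normalized counts of 1348 and 1389 for Ctrl, 1010.1 and 984 for LPS, 1347 and 1459 for Eff and 1079 and 1062 for LPSEff. The 4 stimulated samples were below the 4 unstimulated ones with little spread within groups. The difference was small, -0.46 (SE 0.16, adjusted p = 0.0721) in LPS vs Ctrl and -0.39 (SE 0.16, adjusted p = 0.129) in LPSEff vs Eff. It passed as the mean of both contrasts, at -0.42 (SE 0.11, adjusted p = 0.0185). This call was lost in limma without the filter on low values (adjusted p = 0.0729). It was also lost without a Ctrl, Eff or LPSEff sample, where the estimate was -0.45 to -0.39.

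Klf16 (chr10:80402954-80413712, minus strand) had normalized counts of 190.4 and 171 for Ctrl, 125 and 107 for LPS, 314 and 207 for Eff and 148 and 128 for LPSEff. All stimulated samples were below all unstimulated ones, and Eff replicate 1 was the highest of the 8. LPS vs Ctrl gave -0.64 on the log2 scale and did not pass (SE 0.25, adjusted p = 0.109), while LPSEff vs Eff passed with -0.88 (SE 0.25, adjusted p = 0.0427). Without Eff replicate 1 the latter was -0.59 (adjusted p = 0.259), and it was also lost without either Ctrl or either LPSEff sample (adjusted p 0.0685 to 0.171) and with edgeR (0.0525). The mean stimulus effect was -0.76 (SE 0.18, adjusted p = 0.0112).

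Klf3 and Klf7 passed in neither contrast without the replicate block. Klf3 (chr5:64959875-64990261, plus strand), whose protein represses through CtBP, had normalized counts of 377 and 235 for Ctrl, 362 and 289 for LPS, 287 and 242 for Eff and 261 and 283 for LPSEff. Its groups overlapped in both stimulus contrasts, and the log2 fold changes were 0.12 (95% interval -0.48 to 0.72) and 0.04 (95% interval -0.55 to 0.64). Klf7 (chr1:64068606-64161508, minus strand), the closest relative of Klf6 and known for its part in neuronal development, had normalized counts of 343 and 471 for Ctrl, 639 and 618 for LPS, 454 and 384 for Eff and 283 and 467 for LPSEff. Both LPS samples were the highest of the 8, with 0.64 (SE 0.27, adjusted p = 0.131) in LPS vs Ctrl, and both LPSEff samples were below both LPS samples, with -0.79 (SE 0.27, adjusted p = 0.345). Neither passed, though the former did with the replicate block. In the samples that had been co-cultured, the stimulus gave -0.20 (95% interval -0.83 to 0.43), and the difference between both stimulus effects was -0.84 (SE 0.39, 95% interval -1.73 to 0.04, adjusted p = 1).

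Co-culture with apoptotic cells alone did not change any KLF detectably. In Eff vs Ctrl 0 of 10 members passed, against 0.251% of all tested genes, and 0 had p under 0.05 before adjustment in limma. Samples of Eff and Ctrl did not overlap for 4 of 10 members (34.1% of all genes), with Klf11 and Klf16 higher and Klf6 and Klf9 lower in Eff. The estimates ran from -0.18 for Klf4 to 0.50 for Klf16 (95% interval -0.08 to 1.08), and the widest interval was that of Klf2, -0.91 to 1.24. With the replicate block the count was also 0, against 2.67% of all genes. In LPSEff vs LPS 0 of 10 passed without the block, against 0.773% of all genes, and Klf10, Klf9 and Klf7 had p under 0.05 before adjustment (0.00561, 0.0118 and 0.0196 in limma). With DESeq2 and edgeR on the recovered reads and no block, the count was also 0 in both contrasts. With the replicate block, Klf10 passed in LPSEff vs LPS (1.05, adjusted p = 0.0199), 1 of 10 members against 6.97% of all genes, and edgeR with the block gave 2 of 10 (Klf9 and Klf10) against 7.56%. Beside these 3 genes, the samples of LPS and LPSEff did not overlap for Klf3, Klf6, Klf13 and Klf16 either, so that 7 of 10 members were separated, compared with 36.3% of all genes. Of these, Klf9, Klf10, Klf13 and Klf16 were higher and Klf3, Klf6 and Klf7 lower in LPSEff. The mean efferocytosis effect passed for 0 of 10 members (1.92% of all genes), and for 0 of 10 did the 4 co-cultured samples separate from the other 4 (4.41% of all genes). It also passed for 0 with edgeR and DESeq2, and 1 member had p under 0.05 before adjustment in limma. That member was Klf10, at 0.64 (SE 0.20, 95% interval 0.18 to 1.10, adjusted p = 0.2), and it passed with the replicate block (0.64, adjusted p = 0.0262), 1 of 10 members against 11.3% of all genes, as with edgeR and the block (11.7% of all genes). LPS and LPSEff also differed in the fibroblast marker sum given above, in which 7 of 12 tested markers were higher and 0 lower in LPSEff. The dendritic cell marker sum was lower in LPSEff, but 0 of 4 tested markers passed. Ccr7 made up most of that sum, with means of 11029 in LPS and 5981 in LPSEff. The part of both marker sets in the KLF differences was not tested.

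**Figure D3:**
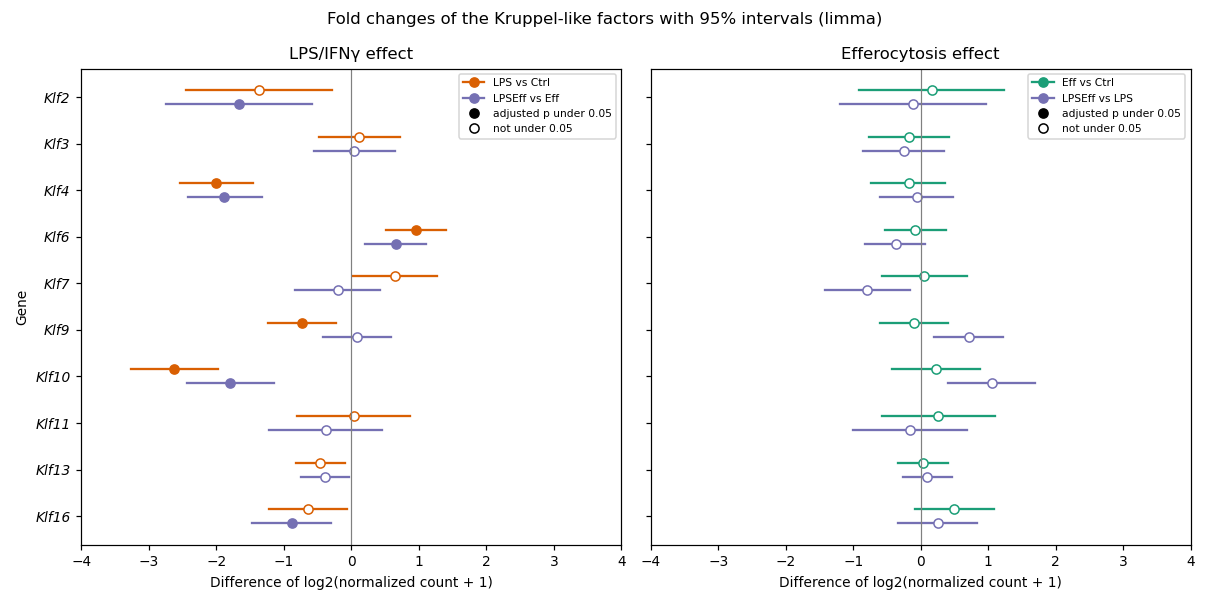
Differences of log2(normalized count + 1) between groups (horizontal axes) for the 10 KLFs (vertical axis), with LPS/IFNγ effects on the left and efferocytosis effects on the right. Points are limma estimates, bars are 95% intervals, and filled points have an adjusted p under 0.05. Points are from the fit without the replicate block, in which filled points occur only on the left, at -2.62 for Klf10 and -2.00 for Klf4 in LPS vs Ctrl and at smaller sizes for Klf2, Klf6, Klf9 and Klf16, and on the right Klf10 lies at 1.05 in LPSEff vs LPS with an open point.

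The genes upstream of Klf2 and Klf4 were inspected next. ERK5 (Mapk7) and its kinases activate MEF2 factors, which induce both genes. Of 7 genes of this pathway, 2 fell in LPS vs Ctrl and the same 2 in LPSEff vs Eff, and 0 rose. The other 5 did not pass, and the shares of all tested genes that passed in either direction were 24% and 19.7%. Mef2c had normalized counts of 190.4 and 259.7 for Ctrl, 67.3 and 102 for LPS, 132 and 207 for Eff and 46.7 and 64.7 for LPSEff, and its log2 fold changes were -1.42 (SE 0.34, adjusted p = 0.0183) and -1.57 (SE 0.34, adjusted p = 0.0134). Mef2d had normalized counts of 406 and 431 for Ctrl, 283 and 212 for LPS, 565 and 436 for Eff and 295 and 286 for LPSEff, with -0.77 (SE 0.22, adjusted p = 0.0354) and -0.77 (SE 0.22, adjusted p = 0.04). The Mef2c changes passed under all alternatives that kept every sample of the contrast, whereas those of Mef2d were lost, among others, with edgeR and without the filter on low values. The median log2 fold change of the 7 genes was -0.31 in LPS vs Ctrl and -0.31 in LPSEff vs Eff, beside -0.01 and 0.01 over all tested genes. No gene of the pathway passed in Eff vs Ctrl or LPSEff vs LPS, except that 1 was lower in LPSEff vs LPS with the replicate block.

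Genes known as targets of KLF2 or KLF4 went in both directions. Of 9 listed genes 7 were tested. In LPS vs Ctrl, 3 fell and 1 rose, and in LPSEff vs Eff 2 fell and 1 rose, with medians of -1.17 and -0.36 over the 7. Over all tested genes, 24% and 19.7% passed in either direction, with medians of -0.01 and 0.01. Thbd, the endothelial and myeloid anticoagulant receptor thrombomodulin and a textbook target of both factors, had normalized counts of 166 and 132 for Ctrl, 20.7 and 9.14 for LPS, 239 and 252 for Eff and 207 and 118 for LPSEff. It fell 10.1-fold in LPS vs Ctrl, with -3.33 (SE 0.41, adjusted p = 0.000965), but LPSEff vs Eff gave -0.65 (SE 0.41, adjusted p = 0.321), so that Thbd was 10.6-fold higher in LPSEff than in LPS, with 3.41 (SE 0.41, adjusted p = 0.0174). For Thbd, Eff vs Ctrl gave 0.73 (SE 0.41, adjusted p = 0.965), which did not pass. The fibroblast markers moved in the same direction, with 7 of 12 tested higher in LPSEff than in LPS (median log2 fold change 4.45) and 6 of 12 higher in Eff than in Ctrl (median 3.97), and their part in the Thbd difference was not tested. Between LPS and LPSEff, Klf2 and Klf4 differed by -0.12 and -0.06 with adjusted p values of 0.972 and 0.972. The Thbd call in LPSEff vs LPS was lost when only both groups were fitted (limma adjusted p = 0.0727). It was also lost when LPSEff replicate 1 was left out. The difference between both stimulus effects on Thbd was 2.68 (SE 0.57, adjusted p = 1). S1pr1, the receptor for the egress signal sphingosine-1-phosphate, had normalized counts of 93.3 and 87.9 for Ctrl, 24.6 and 23.4 for LPS, 176 and 91.0 for Eff and 42.8 and 25.4 for LPSEff and fell with -1.88 (SE 0.39, adjusted p = 0.0102) and -1.91 (SE 0.39, adjusted p = 0.0108). Cdkn1a, encoding the cell cycle inhibitor p21, rose in both (1.42 and 1.37), though not under quantile normalization.

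**Figure D4:**
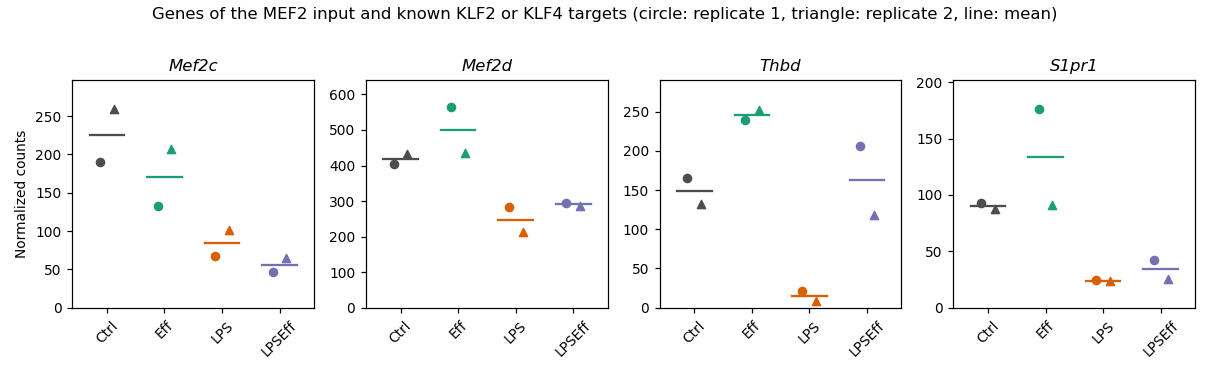
Normalized counts (vertical axes, from 0) of Mef2c, Mef2d, Thbd and S1pr1 in Ctrl, Eff, LPS and LPSEff (horizontal axes), with a circle for replicate 1, a triangle for replicate 2 and a line at the mean. Mef2c, Mef2d and S1pr1 are low in all 4 stimulated samples, whereas Thbd is low in LPS (20.7 and 9.14) and not in LPSEff (207 and 118).

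Among 7 TGF-β and Smad genes tied to KLF10 and KLF11, 1 fell and 1 rose in LPS vs Ctrl and the same 2 in LPSEff vs Eff, with medians of 0.02 and 0.33. Over all tested genes, 24% and 19.7% passed in either direction, with medians of -0.01 and 0.01. Tgfbr2, the type II TGF-β receptor, had normalized counts of 3031 and 2930.3 for Ctrl, 817 and 1018 for LPS, 2594 and 2594 for Eff and 648 and 896 for LPSEff and fell with -1.71 (SE 0.21, adjusted p = 0.000976) and -1.77 (SE 0.21, adjusted p = 0.000906). Smad4, the common mediator of the pathway, rose with 0.92 (SE 0.19, adjusted p = 0.00915) and 0.70 (SE 0.19, adjusted p = 0.0329), of which the latter was lost with equal totals. Of 7 genes of the glucocorticoid response, to which Klf9 belongs, 6 were tested. From these, 2 rose and 1 fell in LPS vs Ctrl, and 1 rose and 1 fell in LPSEff vs Eff, against the same shares of all genes. In LPS vs Ctrl, the receptor gene Nr3c1 rose (0.99, SE 0.16, adjusted p = 0.00331), the phosphatase gene Dusp1 rose (1.48, SE 0.37, adjusted p = 0.0232) and the immunophilin gene Fkbp5 fell (-1.36, SE 0.20, adjusted p = 0.00193), though Dusp1 not with equal totals or quantile normalization, and the median of the 6 was 0.73. In LPSEff vs Eff, Nr3c1 rose (0.90, SE 0.16, adjusted p = 0.00588) and Fkbp5 fell (-2.14, SE 0.20, adjusted p = 0.000233), with a median of 0.70. Fkbp5 had normalized counts of 659 and 726 for Ctrl, 246 and 292 for LPS, 915 and 742 for Eff and 178 and 194 for LPSEff, all lower in stimulated than in unstimulated samples.

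The partners that KLF proteins recruit went in both directions. With both stimulus effects averaged, 5 of the 14 co-repressor and co-activator genes rose and 4 fell, against 36.5% of all genes in either direction. Of the 14, 3 rose and 0 fell in LPS vs Ctrl, namely the acetyltransferase gene Kat2b (1.01, SE 0.18, adjusted p = 0.00492), the demethylase gene Kdm1a (0.83, SE 0.20, adjusted p = 0.021) and Sin3b (0.80, SE 0.17, adjusted p = 0.0125), the last 2 of which did not pass with equal totals. In LPSEff vs Eff, Kat2b rose (0.84, SE 0.18, adjusted p = 0.0126) and Ctbp1 fell (-0.66, SE 0.16, adjusted p = 0.0234). The medians of the 14 were -0.03 and -0.05, beside -0.01 and 0.01 over all tested genes, of which 24% and 19.7% passed in either direction. With equal totals, the counts were 1 higher and 4 lower in LPS vs Ctrl and 0 higher and 5 lower in LPSEff vs Eff. The shares of all genes were then 35.2% and 34.2%. As a reference for the stimulus, 8 NF-κB and hypoxia genes tied to KLF2 or KLF6 were counted, of which 7 rose in LPS vs Ctrl and 8 in LPSEff vs Eff. They included Ptgs2, encoding the prostaglandin synthase COX-2 (log2 fold changes 8.91 and 7.43), and the NF-κB feedback gene Tnfaip3 (3.77 and 3.70). F3, encoding tissue factor, rose from normalized counts of 0 and 8.10 for Ctrl to 432 and 226 for LPS and from 13.1 and 33.9 for Eff to 459 and 277 for LPSEff. The medians of the 8 were 2.48 and 2.39. Ptgs2 also rose in Eff vs Ctrl (1.58, SE 0.18, adjusted p = 0.0229), though not with edgeR.

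Of the other 7 KLF genes, Klf5 and Klf8 were abundant enough to be tested. Klf8, which encodes a CtBP-binding repressor related to KLF3, had normalized counts of 49.5 and 84.4 for Ctrl, 131 and 195 for LPS, 36.8 and 50.8 for Eff and 64.9 and 110.4 for LPSEff. It rose in LPS vs Ctrl (1.29, SE 0.39, adjusted p = 0.0458) and not with equal totals, and LPSEff vs Eff gave 0.95 (SE 0.39, adjusted p = 0.133). Klf5 had normalized counts of 7.62 and 5.20 for Ctrl, 10.3 and 8.12 for LPS, 11.4 and 7.06 for Eff and 35.6 and 17.8 for LPSEff, with both LPSEff samples the highest, and passed in no contrast without the replicate block. Of the 9 genes of the related SP family, 6 were tested and 0 passed in any of the 4 pairwise contrasts with limma (1 had p under 0.05 before adjustment in LPS vs Ctrl and 0 in LPSEff vs Eff). With both stimulus effects averaged, 1 SP gene rose and 0 fell, against 36.5% of all genes in either direction. With equal totals, 2 passed as lower in LPS vs Ctrl and 1 in LPSEff vs Eff, against 35.2% and 34.2% of all genes in either direction.

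The profiles over the 8 samples were compared as a description. These samples share the strong stimulus effect, so that any gene that followed LPS/IFNγ correlates with the members that did. Pearson's r of log2(normalized count + 1) was 0.929 between Klf4 and Klf10, 0.948 between Klf4 and Klf13, 0.964 between Klf10 and Klf13 and 0.884 between Klf2 and Klf4. Klf6 ran against them, with r = -0.994 to Klf10 and -0.964 to Klf13, and Klf7 ran against Klf9 (r = -0.905). Klf3 and Klf11 had no r beyond 0.437 in size with another member. Among all tested genes, the profile closest to Klf10 was that of Lhfpl2 (r = 0.999), to Klf6 that of Rgs1 (0.998), to Klf4 that of Tmem86a (0.997), to Klf13 that of Idh2 (0.993), to Klf2 that of Sipa1 (0.987), to Klf16 that of Set (0.984) and to Klf9 that of Pacs2 (0.96). The number of genes with r of at least 0.95 was 448 for Klf4, 390 for Klf13, 379 for Klf6 and 276 for Klf10. It was 75 for Klf2, 53 for Klf16 and 3 for Klf9, so that Klf9 shared its profile with the fewest genes among these members. Klf3, Klf7 and Klf11, which passed in no contrast without the replicate block, were not counted.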

How the data were processed

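Total RNA of 8 BMDM samples was sequenced, 2 in each of 4 groups, and samples were grouped by the treatment in their labels. The authors depleted rRNA with RiboCop, made single-end libraries, cut adapters with cutadapt, discarded rRNA reads with bowtie2, aligned the rest to mm39 (STAR) and assigned them to genes by htseq-count at default settings, which count by strand and drop reads shared by overlapping genes. Versions and the annotation release are not given in the sources used here. The deposited signal is a normalized count, the read count over a DESeq2 size factor. All deposited values were whole multiples of the smallest value of their sample (tolerance 0.001), from which reads and size factors were recovered. Floors of 3 reads cover counting error only.

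limma 3.58.1 (R 4.3.3) with a trend was fitted to log2(normalized count + 1), using 16309 genes whose mean was 10 or more, with 4 group means and no replicate number, and adjusted by Benjamini-Hochberg over all genes. Fold changes are on that scale, which slightly understates changes of low genes. A gene was called at an adjusted p under 0.05. The fit was also run on simulated counts with independent samples and a common dispersion, and the outcome is not reported here. Same-numbered samples of these data deviated together, which that simulation did not include. The exact permutation of 2 against 2 samples cannot fall below 0.333, so no such test was made. The members and the other gene lists were chosen with earlier results of these data known. Text names all members, the gene with the closest profile to each called member, and of the other lists only called genes, at most 3 per list and contrast, except that Klf5 and values of a called gene in other contrasts were added after their values were seen. Promoters were read from GRCm39 with GENCODE M39. Alternatives were pseudocounts of 0.5 and 5, no filter or a mean of at least 50, equal totals, quantile normalization, only the groups compared, a replicate block, edgeR 4.0.16, DESeq2 1.42.0 and leaving out each sample. edgeR with the block was added after the values were seen. Some called genes of the other lists are counted but not reported by name here.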

Additional observations from a re-analysis of the deposited data

Results flagged for a closer look

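Klf9 was marked because its efferocytosis effect differed in direction between the unstimulated and the stimulated context. Eff samples (199.8 and 197 normalized counts) were below Ctrl (213 and 211), and LPSEff samples (246 and 179) were above LPS (120.3 and 136). The difference between both effects was 0.81 on the log2 scale (SE 0.31, 95% interval 0.09 to 1.52, limma adjusted p = 1), which did not pass.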

How the results depend on the processing

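The drops of Klf4 and Klf10 in LPS vs Ctrl and LPSEff vs Eff kept their direction and their side of the threshold under every alternative. Of 1293 values of single members under alternatives, 1180 kept direction and side, 46 were no longer past the threshold, 22 newly passed and 45 changed direction. The number of members that passed in LPS vs Ctrl (4) was 7 with equal totals (35.2% of all genes, against 24% as reported), and that in LPSEff vs Eff (5) was 3 without a filter, with only the groups compared and with edgeR, and the cause was not tested. Leaving out single samples gave 2 to 4 and 2 to 5 members. In a fit with 1 sample left in a group, that sample is assumed to vary like the others. Changes of direction concerned values that had not passed, except that of Klf6. Equal totals turned Klf3 to -0.28 and Klf11 to -0.36 in LPS vs Ctrl, Klf3 to -0.41 and Klf9 to -0.37 in LPSEff vs Eff, and Klf3 to -0.34 and Klf7 to -0.20 in the mean stimulus effect. Quantile normalization turned Klf6 to -0.13 in LPSEff vs Eff and Klf2 to -0.01 in the mean efferocytosis effect. Leaving out single samples moved some uncalled values across 0. In LPS vs Ctrl, these ranges were -0.22 to 0.46 for Klf3, -0.10 to 0.17 for Klf11. In LPSEff vs Eff, these ranges were -0.08 to 0.17 for Klf3, -0.56 to 0.16 for Klf7, -0.15 to 0.31 for Klf9, -0.79 to 0.04 for Klf11. In Eff vs Ctrl, these ranges were -0.10 to 0.44 for Klf2, -0.51 to 0.16 for Klf3, -0.17 to 0.28 for Klf7, -0.02 to 0.09 for Klf13. In LPSEff vs LPS, these ranges were -0.68 to 0.44 for Klf2, -0.25 to 0.12 for Klf4, -0.57 to 0.26 for Klf11. In the mean stimulus effect, these ranges were -0.09 to 0.25 for Klf3, -0.38 to 0.04 for Klf11. In the mean efferocytosis effect, these ranges were -0.26 to 0.31 for Klf2, -0.16 to 0.26 for Klf11. In the difference between stimulus effects, these ranges were -0.85 to 0.28 for Klf2, -0.41 to 0.26 for Klf3, -0.06 to 0.31 for Klf4, -0.83 to 0.0025 for Klf11, -0.54 to 0.05 for Klf16.

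The replicate numbers were not stated to pair samples, and the deviations of same-numbered samples correlated with r = 0.404 to 0.595 over the 6 pairs of groups. With the replicate block, 8 members passed in LPS vs Ctrl (41.2% of all genes), 1 in LPSEff vs LPS (Klf10, 6.97% of all genes) and 1 in the mean efferocytosis effect (Klf10, 11.3% of all genes). Of the other lists, 2 targets of KLF2 or KLF4 then rose and 5 fell in LPS vs Ctrl, as did 5 and 2 of the co-regulators and 1 and 1 of the SP genes. With edgeR and the replicate block the member counts were 8 (40.9%), 2 (7.56%) and 1 (11.7%), and Klf2 turned to -0.0031 in the mean efferocytosis effect. Depth limits Klf11 and Klf2 most, with 20 to 59 reads per sample for Klf11.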
